A study of Bos taurus with 24 samples.

Results

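Splicing factor and heterogeneous nuclear ribonucleoprotein (hnRNP) genes were described in bovine ovarian follicles, the largest from each of 16 heifers. The set held every gene whose single platform symbol starts with SNRP, SF3A, SF3B, SRSF, HNRNP or PRPF, or with LSM and a digit. That rule took 58 of the 9425 genes with 1 symbol on the array, through 94 of 17418 features. Of these, 57 genes were measured among 9026 in all. PRPF18 was not, because its only feature had values on fewer than 20 of the 24 arrays.

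Splicing removes introns from pre-mRNA in the spliceosome, which is built from small nuclear RNAs and their proteins. The Sm proteins form a ring around most of these RNAs, the LSM proteins form a related ring on U6 RNA, and SF3A and SF3B hold U2 at the branch site. SR proteins (SRSF genes) bind exons and mostly favour their inclusion, hnRNP proteins coat nascent RNA and often oppose it, and PRPF proteins build and remodel the catalytic complex. Granulosa cells, which line the follicle and divide as it grows, rely on this machinery as all nucleated cells do.

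Each array compared 2 follicles of 8 to 12 mm in diameter, 1 labelled with Cy5 and 1 with Cy3. A follicle was hybridised 3 times, and the pairs formed a loop in which every follicle carried both dyes. The labels give a follicle identifier and no treatment, stage, breed or age, so the only comparison was between follicles, which are untreated as far as the labels say. The series title names follicle selection, the step at which a dominant follicle emerges from its cohort. Each follicle is 1 animal and whole follicle RNA was used, so fewer cells of a type and less RNA per cell cannot be told apart.

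A level here is a follicle's estimated log2 value relative to the mean of all 16 follicles for that gene, and its error is a standard error (SE) from array error over 3 arrays. That SE holds no spread between animals, and the p-values set differences between these follicles against array error only. The direction of the deposited ratios is not stated and was taken as Cy5 over Cy3, as is likely. Every sign below would turn with the inverse ratio, while counts past the threshold and correlations would not. Arrays held 16094 to 17028 values, and their number limits the precision, with a median SE of 0.13 for member levels. Such ratios carry no absolute amount, so presence of the tissue's markers could not be checked, but 14 of 17 granulosa markers were measured and 8 of them differed between follicles.

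Splicing factor and hnRNP genes differed between follicles in 16 of 57 cases (28.1%). Over all genes, 11.8% passed the same threshold, an adjusted p under 0.05 in a moderated F test of all follicle effects together (limma, Benjamini-Hochberg over 9026 genes). At an unadjusted p under 0.05 the counts were 27 of 57 members and 26.5% of all genes. The 16 were SNRPD2, SNRPD3 and SNRPE of the Sm core, SF3B3 and SF3B5, SRSF1, SRSF3, SRSF4 and SRSF6, and HNRNPA2B1, HNRNPAB, HNRNPC, HNRNPD, HNRNPF, HNRNPH2 and HNRNPH3. None of 3 U1 and U2 proteins, 11 LSM genes or 6 measured PRPF genes passed, although 4 LSM genes and 1 PRPF gene had an unadjusted p under 0.05. Closest to the threshold were SNRPE (adjusted p = 0.0485) inside it and HNRNPM and LSM3 (adjusted p = 0.0503 each) outside it.

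Follicle J980 stood at the low end. It had the lowest level for 24 of the 57 members (42.1%), against 15.5% of all genes, and for 13 of the 16 that passed, against 39.7% of the genes that passed in all. On its own arrays J980 lay below each of its 3 partners (follicles 8, 27 and 26) for 23 of the 52 members measured on all of them (44.2%), against 18.8% of all genes. Its mean over the 57 members was -0.24, while the next lowest follicle, 27, had -0.06. At the other end follicle 31 had the highest member mean, 0.13. It lay above its partner on all 3 arrays for 21 of 56 members (37.5%), against 17.1% of all genes. Its level was the highest for 8 of the 57 members, against 6.48% of all genes. C35, with a member mean of -0.01, was highest for 9 members, against 5.86% of all genes.

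**Figure D1:**
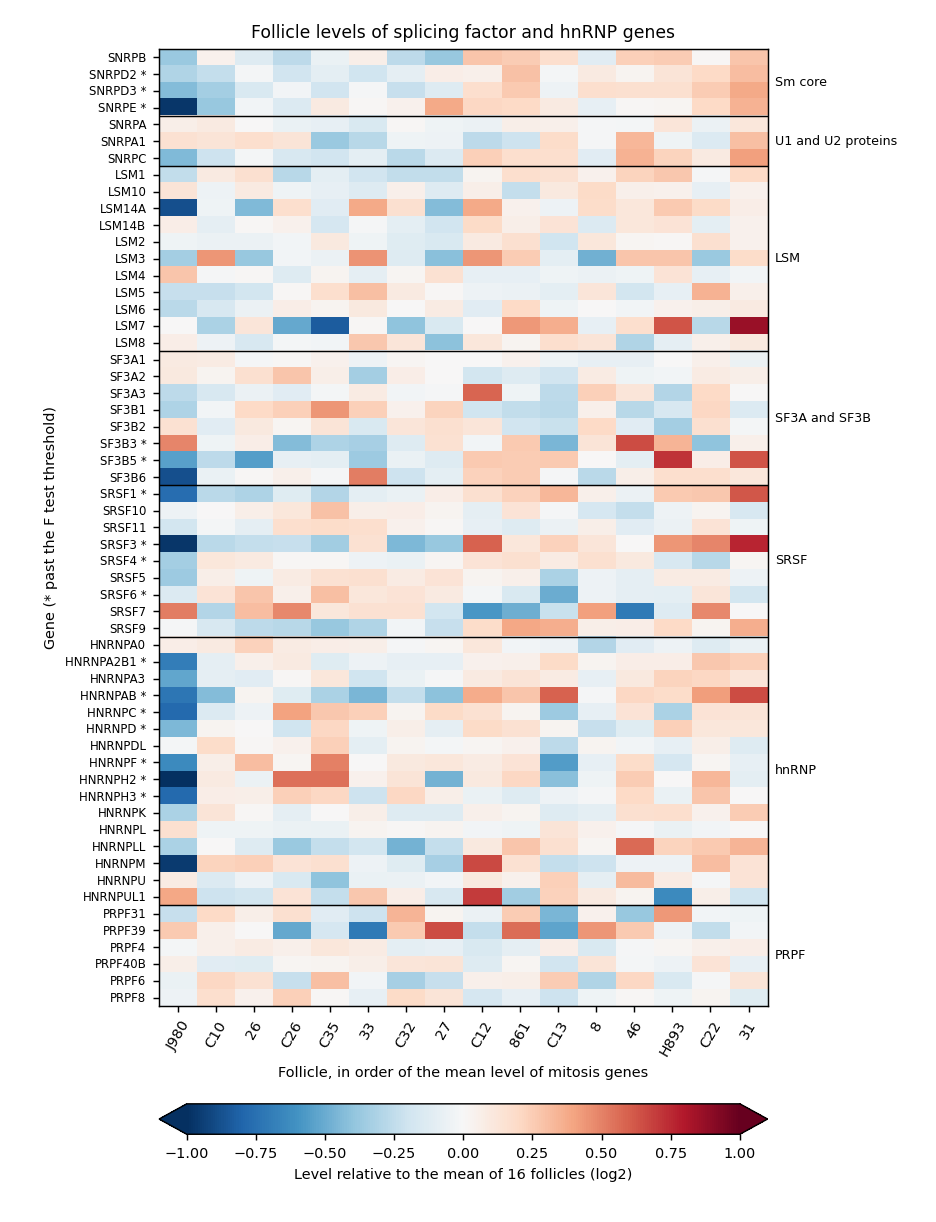
Heat map of the level of each of the 57 measured genes (rows, grouped by role, with a star where the F test passed) in 16 follicles (columns, ordered by the mean level of mitosis genes). Colour is the log2 level relative to the mean of all follicles, with values beyond 1 drawn at the end of the scale; the J980 column at the left is blue for most Sm, SRSF and hnRNP genes, with a mean of -0.24 over all rows, and column 31 at the right has a mean of 0.13.

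The arrays of J980 also had the widest spread of ratios, with SDs of 0.474, 0.544 and 0.526 where the narrowest array had 0.278. Over all genes J980 was the highest follicle for 13.5%, but it was highest for 4 of the 57 members. Among genes past the threshold it was highest for 8.58%, and for 0 of the 16 members past it. Of 14 granulosa markers 10 were below 0 in J980, with a list mean of -0.51 and a median of -0.23. INHBA, a subunit of activin and inhibin, at -2.69 ± 0.17 (SE, 3 arrays) and FST (follistatin) at -2.05 ± 0.10 were the lowest. GATM, another marker on that list that passed (adjusted p = 0.0076), was highest in J980 at 0.71, and IHH at 0.44, NR5A1 at 0.23 and FSHR at 0.09 were above 0 there. The next lowest granulosa mean was -0.25, in follicle 26. Interferon-induced genes had their highest mean in J980, 1.19, although follicles 861 at 1.10 and 33 at 1.08 were close to it and had member means of 0.07 and -0.02. Of the 8 interferon-induced genes measured, 2 were below 0 in J980, USP18 at -0.75, its lowest level, and IFI44L at -0.03. Whether the array spread, the makeup of the follicle or its interferon-induced genes had a part in the low member levels of J980 was not tested.

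Because J980 weighed on so many members, the loop was fitted again without it and its 3 arrays. That fit called 7 of 57 members (12.3%), against 7.47% of all genes. HNRNPAB, HNRNPF, SF3B3, SNRPD3, SRSF1 and SRSF3 were called in both fits, and SRSF9 was called without J980 alone (adjusted p = 0.0497). The other 10 were not called without J980, with adjusted p from 0.0611 for SNRPD2 to 0.234 for HNRNPH3. The smaller fit has 6 residual degrees of freedom in place of 8.

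The Sm core genes correlated best among themselves of all roles, by the median over pairs. SNRPD3 ranged from -0.43 ± 0.10 in J980 over a median of -0.02 to 0.38 ± 0.10 in follicle 31 (adjusted p = 0.0122). On single arrays, where ratios still hold the dye term of the gene, its ratio of J980 to a partner was -0.74, -0.24 and -0.18, and that of follicle 31 was 0.14, 0.43 and 0.81, so all 6 arrays had the sign of the fitted level. SNRPD2 ranged from -0.30 ± 0.10 in J980 to 0.31 ± 0.10 in follicle 31 (adjusted p = 0.0256), and its second lowest follicle, C10 at -0.24, lay within the error of the lowest. Both proteins sit in the ring on the spliceosomal RNAs.

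SNRPE, another ring subunit, had its lowest level at -0.97 ± 0.21 in J980, apart from the next follicle, C10, at -0.38 ± 0.19, and its highest at 0.38 ± 0.21 in follicle 27. The ratios of J980 to its partners were uneven for this gene, -0.32 against follicle 8, -1.49 against 27 and -1.20 against 26, and it did not pass with no dye term (adjusted p = 0.211). SNRPB, the Sm B protein, did not pass (adjusted p = 0.238), with its lowest levels at -0.38 in 27 and -0.37 in J980 and its highest at 0.28 in C12. The median correlation between pairs of the 4 Sm genes over the 16 follicles was 0.67, and 0.62 without J980, where the median over pairs of all genes was 0.00 in both fits. Over pairs of all 57 members it was 0.07, and 0.03 without J980.

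The U1 and U2 proteins SNRPA, SNRPA1 and SNRPC did not pass. SNRPC, which helps U1 contact the 5′ splice site, had the smallest p of the 3 (adjusted p = 0.278) and ran from -0.44 ± 0.16 in J980 to 0.41 ± 0.16 in follicle 31. Those are the end follicles of SNRPD3 as well, but with a larger error. SNRPA, which binds a stem loop of U1 RNA, was nearly level, from -0.15 ± 0.07 in follicle 33 to 0.12 ± 0.08 in H893 (adjusted p = 0.760).

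Among the SRSF genes, SRSF3, the smallest SR protein, had the smallest p of all members (adjusted p = 0.00110). From low to high its levels were -0.97 in J980, -0.45 in C32, -0.38 in 27, -0.35 in C35, -0.27 in C10, -0.24 in 26, -0.23 in C26 and 0.00 in 46. The upper part of the order was 0.11 in 861, 0.12 in 8, 0.15 in 33, 0.23 in C13, 0.44 in H893, 0.49 in C22, 0.59 in C12 and 0.76 in 31. J980 lay 0.52 below C32, with SEs of 0.12 for both, whereas most other neighbours in this order differed by less than their SEs. Its arrays gave J980 ratios of -1.26, -0.52 and -0.73, and follicle 31 ratios of 0.41, 0.50 and 0.87.

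SRSF1, a founding member of the SR family that acts in both constitutive and alternative splicing, followed a like order. It ran from -0.76 ± 0.11 in J980, over a median of 0.00, to 0.62 ± 0.11 in follicle 31 (adjusted p = 0.00303), and its levels correlated with those of SRSF3 at r = 0.87, or 0.78 without J980. SRSF4 had a narrow range, from -0.34 ± 0.09 in J980 to 0.16 ± 0.09 in follicle 8 (adjusted p = 0.0302). J980 was below its partner by 0.41 to 0.44 on each array for this gene, but follicle C22 at -0.28 was almost as low.

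SRSF6 did not have its low point in J980. It was lowest in C13 at -0.50 ± 0.09, where the next follicle, 31, had -0.18, and highest in C35 at 0.30 ± 0.09 (adjusted p = 0.0315). Neither of its 2 features passed the F test singly (adjusted p over features 0.0555 and 0.164). The gene passed in 8 of 24 fits that left out 1 array. SRSF7 was among the members that did not pass (adjusted p = 0.155, on 21 arrays) and had J980 at the top with 0.51 ± 0.20 and follicle 46 at the bottom with -0.71 ± 0.16. SRSF10, a splicing repressor when dephosphorylated, had the largest p of the SRSF genes (adjusted p = 0.715), from -0.24 to 0.29. SRSF5, SRSF9 and SRSF11 did not pass either. SRSF9 and SRSF6 ran against each other at r = -0.82, or -0.81 without J980, a pair named for its strongly negative r, which was not tested.

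**Figure D2:**
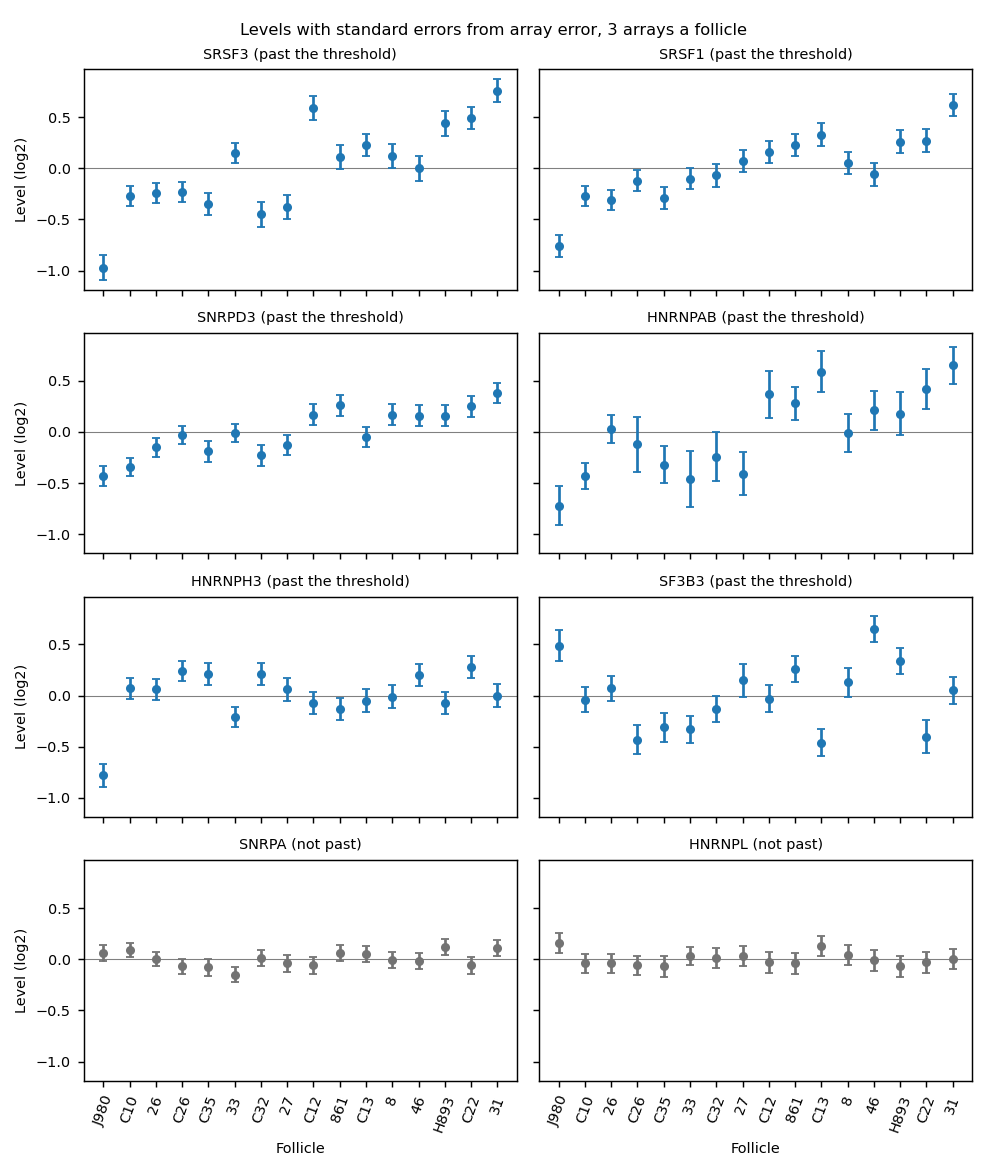
Level of 8 genes in each follicle (log2, relative to the mean of 16 follicles; bars are standard errors from array error over 3 arrays), with follicles in the same order in each panel. J980 is lowest in the panels of SRSF3, SRSF1, SNRPD3, HNRNPAB and HNRNPH3, SF3B3 has J980 among its highest at 0.49, and SNRPA and HNRNPL stay between -0.15 and 0.16.

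The hnRNP genes, the largest role, had the most members past the threshold, 7 of 16, where 11.8% of all genes passed. By share, the Sm core (3 of 4) and the SRSF genes (4 of 9) stood above them. J980 was the lowest follicle for all 7 hnRNP genes that passed, against 39.7% of the genes that passed in all. HNRNPAB, an RNA-binding protein of nucleus and cytoplasm, had the smallest p among them (adjusted p = 0.00394). It ran from -0.72 ± 0.19 in J980 to 0.65 ± 0.18 in follicle 31. It was measured on 22 arrays, and J980 on 2 of its 3, with ratios of -0.85 and -0.15. Its highest follicles after 31 were C13 (0.59), C22 (0.42) and C12 (0.37), which were also above the mean for SRSF3.

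In HNRNPH3, HNRNPA2B1 and HNRNPC, J980 lay below the next follicle by more than both SEs together. HNRNPH3, a G-tract binding protein, had -0.78 ± 0.11 in J980, then -0.21 ± 0.10 in follicle 33 and at most 0.28 ± 0.11 in C22 (adjusted p = 0.0115). Its 3 ratios of J980 to a partner were -0.55, -0.85 and -0.96. HNRNPA2B1, which carries and sorts mRNAs besides its role in splicing, had -0.69 ± 0.10 in J980 and then -0.12 ± 0.10 in C35 (adjusted p = 0.0158). HNRNPC, which binds uridine tracts of nascent RNA, had -0.78 ± 0.15 in J980, -0.36 in C13 and -0.32 in H893, and up to 0.40 ± 0.14 in C26 (adjusted p = 0.0246).

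HNRNPH2, a relative of HNRNPH3, had the lowest level of any member, -1.14 ± 0.20 in J980, and highs of 0.55 in C26 and C35 (adjusted p = 0.0293). Its ratios carried a large dye term, 0.50, where the median absolute dye term over all genes was 0.06, and 18 of its 24 ratios of Cy5 to Cy3 were above 0. As deposited and centred, J980 stood to follicles 8, 27 and 26 at -0.36, -0.14 and -1.85, and with the dye term taken off at -0.86, -0.65 and -1.35. Fitted with no dye term HNRNPH2 did not pass (adjusted p = 0.887), and it passed in 11 of 24 fits that left out 1 array. HNRNPD, known as AUF1 for its part in the decay of AU-rich mRNAs, ran from -0.45 ± 0.10 in J980 to 0.24 ± 0.10 in H893 (adjusted p = 0.0388). HNRNPF had 2 low follicles, J980 at -0.64 ± 0.16 and C13 at -0.56 ± 0.16, which did not differ beyond their errors, and a high of 0.50 ± 0.16 in C35 (adjusted p = 0.0398, or 0.484 with no dye term).

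Of the 9 hnRNP genes that did not pass, HNRNPM had -0.96 ± 0.19 in J980 and 0.66 ± 0.19 in C12, and HNRNPA3 had -0.52 ± 0.10 in J980 and 0.22 ± 0.10 in H893 (adjusted p = 0.0728). HNRNPK, the poly(C)-binding member, had -0.32 in J980 and 0.25 in 31 (adjusted p = 0.232). HNRNPL, which binds CA repeats, had the largest p of the group (adjusted p = 0.879) and ranged only from -0.07 to 0.16. J980 held its highest level. HNRNPL and HNRNPH2 ran against each other at r = -0.84, or -0.82 without J980. That pair was named for its strongly negative r, which was not tested. The SD of HNRNPL levels, 0.07, was below its array error of 0.13, and its 2 features correlated at only 0.06.

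SF3A and SF3B subunits showed no common order, with a median pairwise correlation of -0.03. SF3B3, a scaffold subunit of the SF3B complex, had its lowest levels in C13 (-0.46 ± 0.13), C26 (-0.43 ± 0.14) and C22 (-0.40 ± 0.16), which lay within their errors (adjusted p = 0.0182). Its highest were 0.65 ± 0.13 in follicle 46 and 0.49 ± 0.15 in J980, and it was measured on 22 arrays. SF3B5, a small subunit of the same complex, was low in 26 (-0.55 ± 0.15) and J980 (-0.54 ± 0.17) and high in H893 (0.72 ± 0.17) and 31 (0.63 ± 0.16), with an adjusted p of 0.0428. These 2 subunits were both high in H893, but J980 was at opposite ends of their orders.

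SF3B6, which contacts the branch point adenosine, did not pass (adjusted p = 0.0948) but had -0.88 ± 0.17 in J980 and 0.51 ± 0.15 in follicle 33. SF3B1, the largest SF3B subunit, reached 0.44 ± 0.13 in C35 and -0.31 ± 0.13 in J980 (adjusted p = 0.128). SF3A1 was nearly level, from -0.08 to 0.09, and SF3A2 had the largest p of the group (adjusted p = 0.883). SF3A3 and SF3B2 did not pass either.

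For the LSM genes, which also serve mRNA decay (LSM1 to LSM7) and histone mRNA processing (LSM10), the median SD of level over follicles was 0.17, beside a median array error of 0.15. LSM3 had the smallest p and ran from -0.48 ± 0.18 in follicle 8 to 0.45 ± 0.11 in 33. LSM7 had the widest range, -0.83 ± 0.27 in C35 to 0.86 ± 0.22 in 31 on 22 arrays, yet did not pass (adjusted p = 0.153). LSM14A, a P-body protein, had -0.88 ± 0.21 in J980 and 0.38 ± 0.18 in C12 (adjusted p = 0.169), and LSM10 had the largest p (adjusted p = 0.926). SDs of level in the 11 genes lay between 0.11 and 0.43, and the median over all genes was 0.17 as well.

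The PRPF genes had 0 of 6 members past the threshold, against 11.8% of all genes. PRPF8, the scaffold at the centre of the spliceosome, had the smallest p (adjusted p = 0.119), from -0.21 ± 0.08 in C13 to 0.24 ± 0.07 in C26. PRPF4, a protein of the U4/U6 particle, had the largest (adjusted p = 0.927), from -0.15 to 0.11. PRPF39 and PRPF31 had wide ranges, -0.71 to 0.65 and -0.46 to 0.43, with SEs of 0.23 to 0.33 at those ends. J980 was the lowest follicle for 0 of the 6 PRPF genes, against 15.5% of all genes. With only 6 genes, both counts of 0 are near the shares of all genes.

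Other spliceosome genes outside the symbol rule gave a different count. Of 95 listed, such as U2AF, DEAD-box and exon junction complex genes, 69 were measured and 8 passed (11.6%, against 11.8% of all genes), namely CLK1, SRPK2, RBMX, PRMT5, U2AF1, DDX5, MBNL1 and EIF4A3. CLK1, a kinase that phosphorylates SR proteins, had the smallest p (adjusted p = 0.00794), from -0.48 ± 0.09 in 861 to 0.39 ± 0.08 in 33, with J980 at 0.07. SRPK2, another SR protein kinase, ran from -0.47 ± 0.09 in J980 to 0.31 ± 0.09 in 861 (adjusted p = 0.0265). RBMX, an hnRNP G protein, ran from -0.30 ± 0.12 in C26 to 0.61 ± 0.13 in 46 (adjusted p = 0.0269). PRMT5, which methylates Sm proteins before ring assembly, ran from -0.47 ± 0.14 in J980 to 0.59 ± 0.14 in C12 (adjusted p = 0.0332). J980 was the lowest follicle for 24 of these 69 genes (34.8%), against 15.5% of all genes. Without J980 and its arrays 2 of 69 passed (2.90%), against 7.47% of all genes. With only features on all 24 arrays, fewer were measured and 12 passed, a share above the 15.6% of all genes.

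Cell cycle genes were the comparison set, with 25 of 75 measured past the threshold (33.3%, against 11.8% of all genes), 17 of 39 of mitosis and 8 of 36 of S phase. The 6 of smallest p were CCNB1, SPC24, BIRC5, H2AZ1, UBE2C and RPA3. CCNB1, the cyclin that drives entry into mitosis, ran from -1.35 ± 0.12 in J980 to 0.99 ± 0.11 in follicle 31 (adjusted p = 2.98e-05). SPC24, a kinetochore subunit, ran from -0.97 ± 0.11 to 0.94 ± 0.11 between the same follicles (adjusted p = 7.9e-05), and BIRC5 (survivin) from -1.47 ± 0.13 to 0.79 ± 0.12 (adjusted p = 0.00016). H2AZ1, a histone variant, ran from -1.13 to 0.83, also from J980 to 31. UBE2C, the ubiquitin-conjugating enzyme of the anaphase-promoting complex, was lowest in J980 (-0.74) and highest in C22 (0.48). RPA3, of the single-strand DNA binding complex, was lowest in 26 (-0.60) and highest in 31 (0.49). Not all ran this way, and CCNB2 was highest in J980 at 0.45 (adjusted p = 0.0290). Without J980 and its arrays, 15 of 75 passed, 14 of them in both fits.

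Over the 16 follicles the mean level of the 57 members and that of the 75 cell cycle genes had a Pearson r of 0.87 and a Spearman rho of 0.78. Without the follicles 31 and J980, which lie farthest from the median of the cell cycle mean, r was 0.70. In the fit without J980 and its arrays r was 0.82 over 15 follicles. The members that did not pass gave r = 0.80, and 0.76 without J980. These are descriptions: both means come from the same 24 arrays, follicle levels share arrays through the loop, and the members were chosen with earlier results known.

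The roles differed in this respect. The Sm core mean had r = 0.93 with the cell cycle mean, 0.84 without follicles 31 and J980 and 0.88 in the fit without J980. The hnRNP mean had 0.68, but 0.33 without those 2 follicles and 0.20 in the fit without J980, so its relation rested on J980. SRSF means gave 0.79 and 0.67 without J980, LSM means 0.64 and 0.70, SF3A and SF3B means 0.71 and 0.58, and U1 and U2 means 0.47 and 0.60. PRPF means had -0.05 and 0.09. For other spliceosome genes the values were 0.68 and 0.53. Differences between these correlations were not tested.

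**Figure D3:**
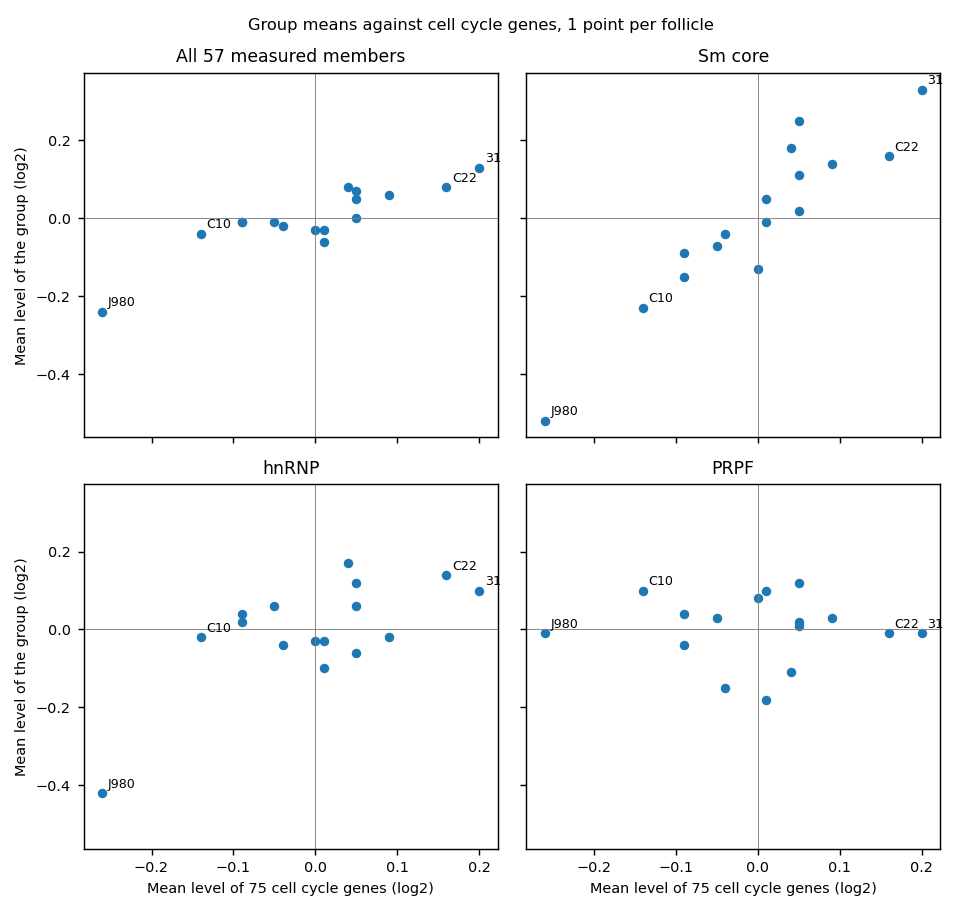
Mean level of a group of genes (vertical axis, log2) against the mean level of 75 cell cycle genes (horizontal axis, log2), 1 point per follicle with 4 follicles named, for all 57 measured members, the Sm core, the hnRNP genes and the PRPF genes. The Sm core points rise along the whole axis (r = 0.93), the hnRNP panel has J980 apart at -0.42 (r = 0.68, and 0.20 without it), and the PRPF panel has no slope (r = -0.05).

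Gene by gene, the correlation with the cell cycle mean was above 0 for 39 of 57 members, with a median of 0.28. For the 8894 genes outside the members and the cell cycle lists the median was 0.00, and 4443 were positive. SRSF1 had the highest value at 0.92, or 0.86 without J980, followed by SNRPD3 at 0.89 (0.74), SNRPD2 at 0.88 (0.87) and SRSF3 at 0.85 (0.79). SNRPC, which did not pass the F test, had 0.79 and 0.85. HNRNPA2B1 had 0.81 with J980 and 0.39 without it, and HNRNPC went from 0.40 to 0.05. HNRNPA0 had the lowest value, -0.58, and -0.64 without J980. SRSF6 had -0.23 and SF3B3 -0.06, so passing the F test did not go with a positive correlation in each case.

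**Figure D4:**
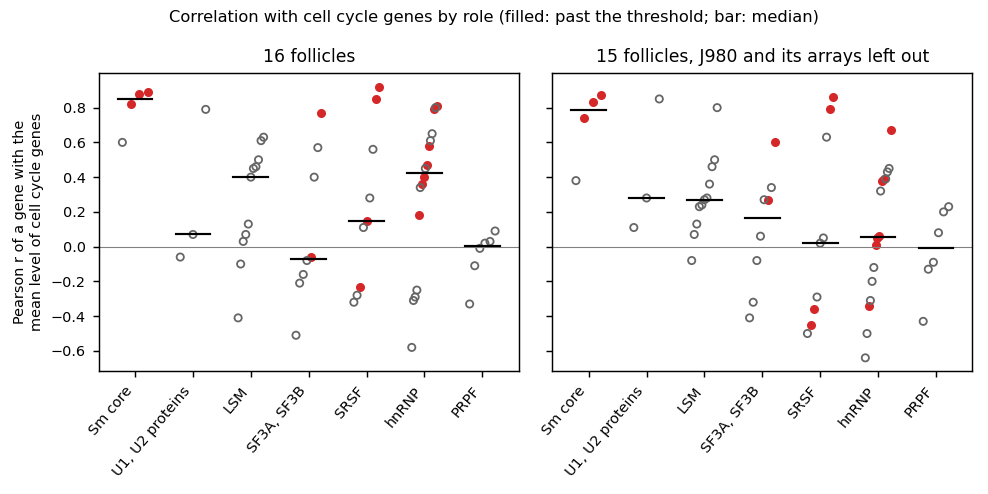
Pearson correlation of each gene with the mean level of 75 cell cycle genes (vertical axis), by role, over 16 follicles (left) and over 15 in the fit without J980 and its arrays (right); filled points passed the F test over 16 follicles and bars are medians. The Sm core median is 0.85 and 0.79, while that of the hnRNP genes is 0.42 on the left and 0.06 on the right.

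Outside the splicing lists, the genes whose levels were most like the mean of the 16 members past the threshold were CMC2 (r = 0.95 over 16 follicles, 0.85 without J980), HSPA9 (0.95 and 0.82), MRPL18 (0.94 and 0.73), STMN1 (0.94 and 0.79) and PSMD6 (0.94 and 0.74). CMC2 is a mitochondrial protein, HSPA9 the mitochondrial HSP70 chaperone and MRPL18 a protein of the mitochondrial ribosome. STMN1 is a microtubule destabiliser and PSMD6 a proteasome subunit. All 5 were lowest in J980, from -0.51 for HSPA9 to -1.27 for STMN1. This follows largely from how they were picked, since the mean they were matched to was -0.57 in J980 and -0.12 in C10, the next lowest. HSPA9 did not pass the F test itself (adjusted p = 0.0604).

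Marker lists of other cell types were set beside these means. The mean member level had r = 0.68 with the granulosa mean, 0.29 without follicles 26 and J980 and 0.42 in the fit without J980. It had -0.50 with the endothelial mean and -0.50 without J980, -0.47 and -0.41 with the leukocyte mean, and -0.50 and -0.26 with theca. For smooth muscle and stroma the sign turned, from 0.18 to -0.42 without J980, and for interferon-induced genes r went from -0.39 to -0.02. In J980 the list means were -0.40 for smooth muscle and stroma (12 measured, 5 past the threshold, lowest of all follicles) and 0.15 for theca (5 measured, 4 past, highest of all follicles). Theca genes did not go together there. GLI1 at 0.86, SCARB1 at 0.36 and INSL3 at 0.19 were above 0, and PTCH1 was at -0.01. HSD3B1 was lowest of all follicles in J980, at -0.63 (adjusted p = 0.00461). For 3 further lists the J980 mean was above 0 but was not the highest of the follicles. It was 0.11 for leukocytes (19 measured, 6 past), where C26 had 0.29. For plasma cells it was 0.20 (4 measured, 3 past), where C26 had 1.02, and for endothelium 0.13 (9 measured, 1 past), where follicle 26 had 0.24. Single genes of these lists did peak in J980, CXCR4 of the leukocyte list at 2.06 ± 0.20 (adjusted p = 6.11e-05) and CLDN5 of the endothelial list at 1.44 ± 0.27, which did not pass (adjusted p = 0.0558). But 10 of the 19 leukocyte genes were below 0 in J980, with a list median of -0.01. Of the 9 endothelial genes 4 were below 0, and ENG at -0.52 and VWF at -0.20 had their lowest levels in J980. Erythrocyte genes had -0.19 (3 measured, 1 past) and oocyte genes 0.03 (2 measured, 1 past), and 5 of 8 interferon-induced genes passed. Their part in the member levels was not tested.

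Many members are read by several array features, which gives a second look at the same gene. Of 85 member features on at least 20 arrays, 17 passed when features were tested singly, against 12.2% of 16358 features, and 32 were lowest in J980 (37.6%, against 14.6% of all features). For the 19 members with at least 2 features the median of the median pairwise correlation between features was 0.28, against 0.08 for 2664 such genes in all. For the 4 such members past the threshold it was 0.53, against 0.41 for 297 genes past the threshold.

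Features of 1 gene did not always share its low point. HNRNPA2B1 had -1.25 ± 0.11 in J980 by feature 1 and -0.13 ± 0.14 by feature 2, and these correlated at r = -0.06 over the follicles. Its gene-level call therefore rested on feature 1 (adjusted p over features 0.000293, against 0.542 for feature 2). HNRNPD had 1 feature at -0.76 and 1 at -0.14 in J980 (r = 0.52), and HNRNPC had -1.13 and -0.44 (r = 0.53). HNRNPA3, which did not pass as a gene, had a feature that did, at -1.18 in J980 (adjusted p over features 0.00146), beside 2 at -0.21 and -0.16.

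In the Sm gene SNRPB, features 1 and 2 correlated at r = 0.92 and both had 31 as the highest follicle, at 0.49 and 0.43. Feature 3 had C10 highest at 0.44. PRPF8 feature 3 passed alone (adjusted p over features 0.000445), from -0.61 in C13 to 0.86 in C26, while features 1 and 2 stayed between -0.22 and 0.30. That feature correlated at 0.68 with IGHG1, an immunoglobulin chain that was highest in C26 as well, the highest such value among member features. No member feature exceeded 0.9 with IGHG1, where 173 of all features did. HNRNPK, LSM2 and PRPF40B also held features that ran against each other, with lowest pairwise correlations of -0.45, -0.18 and -0.46, and none of their features passed.

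**Figure D5:**
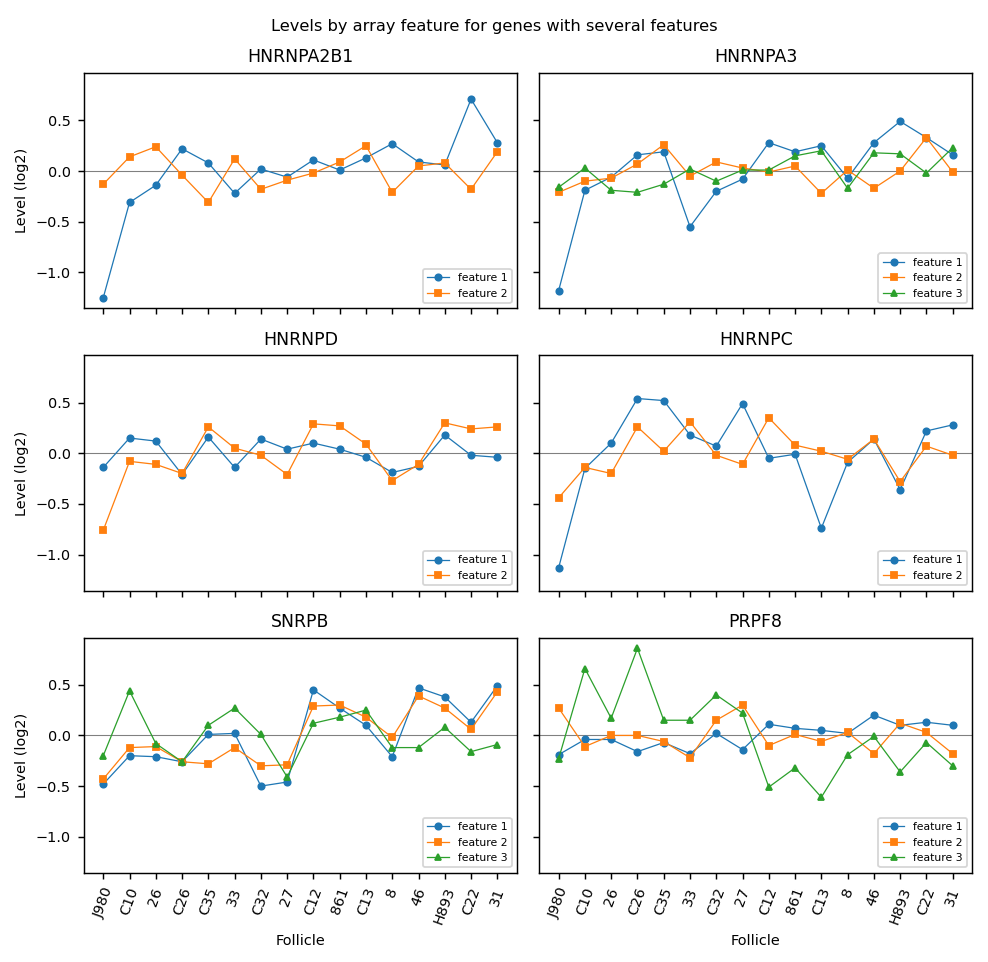
Level by array feature (vertical axis, log2 relative to the mean of 16 follicles) in each follicle for 6 genes with 2 or 3 features. The J980 points of HNRNPA2B1 are -1.25 and -0.13, features 1 and 2 of SNRPB run together (r = 0.92), and feature 3 of PRPF8 departs from the other two with a high of 0.86 in C26.

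Not all 16 calls were equally stable. SRSF3 and SRSF1 passed in each of 8 other settings and in each of 24 fits that left out 1 array, and HNRNPAB passed in the 7 settings and 22 such fits in which it could be fitted. SNRPD3 passed in all 8 settings and 23 of 24 fits, and HNRNPA2B1 in all 24 but not without J980. SNRPE, HNRNPD and HNRNPF passed in 4, 4 and 5 of the 24 fits. With no dye term 8 of the 16 did not pass: HNRNPC, HNRNPD, HNRNPF, HNRNPH2, SF3B3, SF3B5, SNRPD2 and SNRPE, with adjusted p from 0.0503 for HNRNPD to 0.887 for HNRNPH2. In most of the 24 fits the share of all genes that passed was also below the 11.8% of the main fit. Where 7 members passed (12.3%), 7.64% and 7.55% of all genes did. The member share was above that of all genes in each fit. The count of members past the threshold ran from 7 to 16 over the 24 fits. It fell by more than 1.5 times without 11 arrays: to 7 without 31 against C10 or 33 against C13, to 8 without 861 against C10, C22 against C26 or C32 against C26, to 9 without 33 against C12 or C10 against 26, and to 10 without 31 against C13, C13 against 46, C26 against 33 or J980 against 27.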

How the data were processed

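Total RNA of 16 bovine follicles was hybridised to 24 two-colour arrays and, per the labels' protocols, images were read with GenePix Pro 4.0.1.12. The authors deposited log ratios, taken here as log2 of Cy5 over Cy3. Base 10 cannot hold, since the largest absolute value was 6.32 and 16-bit intensities allow 4.82 in log10, but natural logs could. The sources used here do not give how the authors corrected background, filtered spots and normalized within arrays. Array medians lay between -0.0139 and 0.00639 as deposited. Gene symbols come from the 2007 platform annotation, and 11 features with several symbols, of which at least 1 met the rule, were left out. All 58 members matched RefSeq (assembly ARS-UCD2.0) by gene ID, and 0 symbols changed. Unused columns of per-sample values numbered 0.

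Arrays were centred on their medians, features with values on at least 20 arrays were averaged per symbol, and follicle effects (1 for Cy5, -1 for Cy3) with a common dye term were fitted by least squares, leaving 8 residual degrees of freedom for a gene on all arrays (at least 5 for a member). The limma package 3.58.1 (R 4.3.3) moderated the variances. The dye term of a gene was read as the mean ratio left after its fitted levels. Of the members, 45 were on all arrays and 12 on 21 to 23. Tables and figures used Python 3.11.15 and matplotlib 3.10.9. The F test was tried on simulated loops of 9026 genes, 200 of them changed: at a level SD of 0.25, 60.0% were found beside 9 false calls, at 0.5, 96.5% beside 12, and at 1, 100% beside 17. Without differences it made 0 calls.

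Named genes were all members past the threshold, the members of smallest and largest p in each role, members with features that ran against each other, the 6 cell cycle and 4 other spliceosome genes of smallest p, and the 5 genes most like the called members. Other genes named, and the correlation with IGHG1, were chosen after their values were seen. Members, lists and the rule were chosen with earlier results of these data known. Alternatives changed centring, scaling, the array minimum, the dye term, moderation, features per gene, list scores, and the arrays or follicles used.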

Additional observations from a re-analysis of the deposited data

How the results depend on the processing

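The member count of 16 was 16 without median centring, with 1 feature per gene and with features on all 24 arrays (of 45 measured), 15 with at least 16 arrays and 12 with arrays scaled to a common MAD. It was 8 with no dye term (6.74% of all genes), 10 with unmoderated variances (6.53%) and 7 without J980. The cell cycle count of 25 was 15 both with no dye term and without J980, and 10 with unmoderated variances. The count of 8 other spliceosome genes was 5 with a common MAD, 2 with no dye term, 4 with unmoderated variances and 2 without J980. Fewer arrays or residual degrees of freedom apply to the last setting; the cause of the other shifts was not tested. The relation of member and cell cycle means was 0.81 with the median of the members and 0.82 with mitosis genes alone, and the median SD of member levels stayed within 0.19 to 0.22 over these settings.

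Leaving out 1 array at a time gave 7 to 16 members, 12 to 24 cell cycle genes, 2 to 12 other spliceosome genes, a relation of 0.85 to 0.89 and a median SD of 0.20 to 0.28. The cell cycle count moved by more than 1.5 times without 6 arrays, to 12 (33 against C13), 14 (31 against C10), 15 (33 against C12, C10 against 26, C26 against 33) and 16 (8 against C22). The count of other spliceosome genes did so without all arrays but 5 (27 against C32, 46 against 861, 8 against C32, C12 against H893 and J980 against 8). Each array pairs 2 follicles, and the loop fit used those pairs. Replicate numbers were given in accession order and pair no further samples. Precision is limited by 3 arrays per follicle, and signal over background is unknown.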

Other observations

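Among the 11 features with several symbols that were left out of the members, 1 passed the F test over features. It carries the symbols SNRPF, an Sm protein, and AMDHD1, and ran from -1.21 in J980 to 0.36 in C22 (adjusted p over features 0.00958). The other two features with this pair of symbols had -0.15 and -0.02 in J980 and did not pass.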
